A study of Schizophyllum commune with 14 samples.

Results

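Hyd5 is a hydrophobin gene of the split gill mushroom Schizophyllum commune, a wood-decaying basidiomycete in which fruiting has long been studied. It is 1 of 16319 transcript models counted in 14 RNA libraries, the one named '2369341' in the files. It was chosen by its measured levels, since its mean was highest in stage 2 primordium, so its level there is a description and no test is given for it. Its number is that of the RefSeq gene SCHCODRAFT_02369054, symbol Hyd5 in the assembly Schco3, plus 287, a shift that matched 14009 of the 14254 models numbered in this way. The transcript model is 585 bases long. The tables used name no chromosome for it, so no position is given.

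The libraries came from poly(A) RNA of the H4-8 dikaryon, formed by mating the monokaryons H4-8a and H4-8b, so every library holds both nuclear types and a read is not assigned to either. A plug of 5 mm was grown on MM medium for 5 days at 30 °C without light and then for 10 days at 25 °C under 12 hours of daily light. Vegetative mycelium, stage 1 primordium (initials up to 2 mm), young fruiting body (cups of 5 to 7 mm) and fruiting body (fully expanded) had 3 biological replicates each. Stage 2 primordium, initials of 3 to 4 mm with an apical pit, had 2, numbered 2 and 3. No treatment or gene deletion distinguishes the groups.

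Hydrophobins are small secreted fungal proteins with a conserved pattern of cysteines that assemble into amphipathic films at the border of water and air. Such films let hyphae leave the wet substrate, coat aerial structures and line air channels inside fruiting bodies. In S. commune, SC3 is known as the hydrophobin of aerial hyphae and SC6 as one expressed in fruiting dikaryons, while the role of Hyd5 is less well described.

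Libraries held 13708387 to 24052213 unique reads (reads with 1 placement). Stage 2 primordium replicate 2 stood apart: its TMM factor, which scales a library for the abundance of its most expressed genes, was 0.548 against 0.860 to 1.21 elsewhere, and 31.5% of its reads fell in its 50 most abundant models. All vegetative mycelium libraries were read on a different flow cell from the 11 fruiting libraries, so in comparisons with mycelium a difference of flow cell cannot be told apart from one of stage. Of the markers fixed for the labels, SC6, Hyd8, Fst3 and c2h2 (the last a zinc finger regulator needed for primordium formation) were higher in every stage 1 primordium library than in every mycelium library. That arrangement was found in 36% of the 14302 genes tested, so it is not particular to these markers. SC6 averaged 0.458 CPM in mycelium, 233 CPM in stage 1 and 2.07 CPM in stage 2 primordium, where c2h2, at 15.9 and 53.8 CPM, was on either side of its mycelium range (23.1 to 27.9 CPM). In stage 2 primordium Hyd8, at 18.1 and 56.2 CPM, was above its mycelium range (0.0409 to 0.337 CPM). Fst3, at 186 and 339 CPM, was on either side of its own (205 to 248 CPM). In mycelium the aerial hypha marker SC3 was at 170 to 328 CPM. In stage 1 primordium SC3 was at 852 to 2889 CPM, so it did not set mycelium apart.

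Hyd5 transcripts were low and even in mycelium, with 106, 107 and 108 unique reads in replicates 1 to 3, or 5.10, 4.38 and 4.64 CPM (counts per 1e6 unique reads, TMM-scaled). Stage 1 primordium replicates 1 to 3 had 10.3, 11.5 and 46.8 CPM. The counting intervals of the mycelium libraries overlapped, whereas stage 1 primordium replicate 3 (95% exact Poisson interval 43.6 to 50.3 CPM, counting error only) was far above the other two, whose intervals were 8.85 to 11.8 and 10.0 to 13.1 CPM.

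Stage 2 primordium replicate 2 had 1989 reads of Hyd5, or 231 CPM (interval 221 to 241). Stage 2 primordium replicate 3 had 898 reads, or 56.0 CPM (52.4 to 59.8). These were the highest libraries of the series for Hyd5, but they stood 4.13-fold apart, and replicate 3 was only 1.20-fold above stage 1 primordium replicate 3, the highest library outside its stage.

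Young fruiting body replicates 1 to 3 had 13.1, 4.70 and 8.60 CPM of Hyd5, and fruiting body replicates 1 to 3 had 32.8, 4.32 and 4.74 CPM. Fruiting body replicate 1 (821 reads) was 7.60-fold above replicate 2 (74 reads), while the other 2 fruiting body libraries were near the mycelium libraries in CPM and below all 3 of them in TPM (9.89 and 10.6, against 11.6 in the lowest of them). As a bulk measurement, such a level does not tell fewer Hyd5-expressing cells from less Hyd5 RNA per cell.

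**Figure D1:**
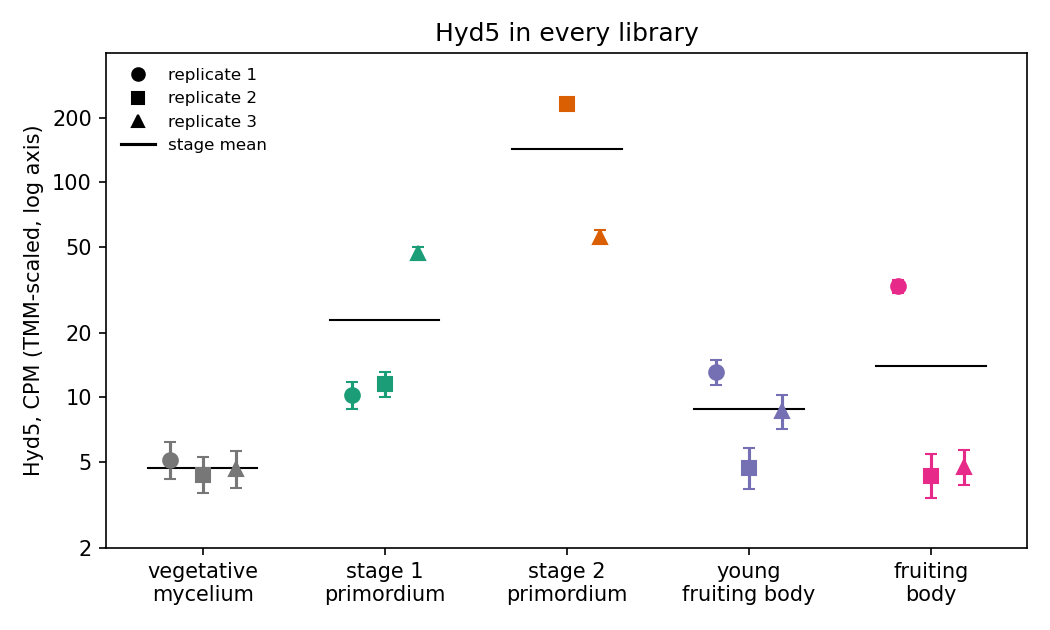
CPM of Hyd5 (log axis, TMM-scaled) in each of the 14 libraries by stage; symbols give the replicate number, vertical bars the 95% exact Poisson interval of the read count, and horizontal lines the stage means. Both stage 2 primordium libraries, at 231 and 56.0 CPM, are above the other 12, and 1 library stands high in stage 1 primordium (46.8 CPM) and 1 in fruiting body (32.8 CPM).

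By stage mean the order was stage 2 primordium (144 ± 124 CPM, SD, n = 2), stage 1 primordium (22.9 ± 20.8, n = 3), fruiting body (14.0 ± 16.3, n = 3), young fruiting body (8.81 ± 4.22, n = 3) and vegetative mycelium (4.71 ± 0.369, n = 3). The stage 2 mean was 6.28 times that of stage 1 primordium, 10.3 times that of fruiting body, 16.3 times that of young fruiting body and 30.5 times that of mycelium. Without stage 2 primordium replicate 2 the stage stood at 56.0 CPM and without replicate 3 at 231 CPM. Both libraries above all 12 others is an arrangement that 6.56% of the 14302 genes tested showed, and since it chose Hyd5 nothing is read from it.

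The order at the top did not depend on the scaling tried. Scaled by the library total alone, the stage 2 libraries were at 127 and 50.3 CPM, against 40.3 CPM in stage 1 primordium replicate 3. In TPM (reads per base of transcript, scaled to the same sum in each library, as deposited) they were at 222 and 98.6, against 79.4. In the authors' log2 RPKM table they were at 8.61 and 6.57, against 6.32. The distance between the 2 stage 2 libraries did depend on it, at 2.52-fold with no factor, 2.25-fold in TPM and 4.12-fold in the authors' table.

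**Figure D2:**
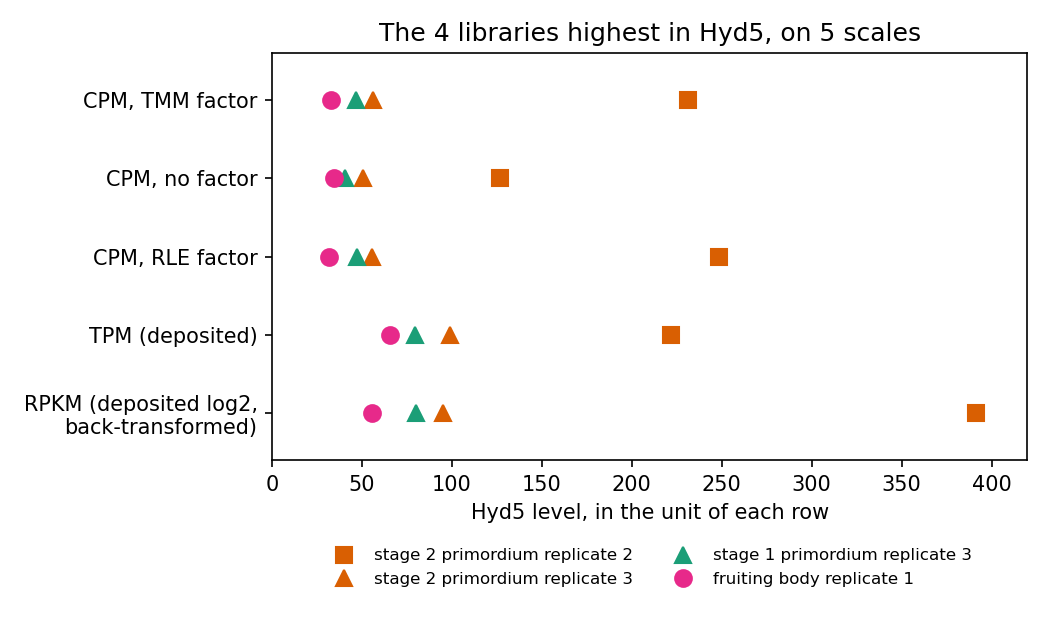
Hyd5 in its 4 highest libraries on 5 scales; each row has its own unit (CPM with 3 scalings, deposited TPM, and deposited log2 RPKM turned back to RPKM), so points are compared within a row. Stage 2 primordium replicate 3 is next to stage 1 primordium replicate 3 in every row (50.3 against 40.3 CPM with no factor), and the position of stage 2 primordium replicate 2 moves with the scaling, from 127 CPM with no factor to 231 with TMM.

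Ranked within each library, which needs no scaling, Hyd5 stood near the middle of the models in mycelium, where 49.3% to 52.0% of the 16319 models had a higher TPM. In stage 2 primordium 3.19% (replicate 2) and 9.17% (replicate 3) of models were higher. In stage 1 primordium replicate 3 the number of higher models was 1832 and in fruiting body replicate 1 it was 2446. In the other libraries of these stages it was 5810 and 6107, and 8871 and 9184. Unique and total reads of Hyd5 were equal in every library, so no read of it was placed at a second site.

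The stages other than stage 2 primordium were compared with edgeR's quasi-likelihood test (stage fitted over all 14 libraries, Benjamini-Hochberg adjustment over 14302 genes, two-sided). Of 6 comparisons of Hyd5, 0 were called at an adjusted p below 0.05, and 1 had an unadjusted p below it; DESeq2 returned no p for this gene. Stage 1 primordium was above mycelium by a log2 change of 2.28 ± 0.87 SE (adjusted p = 0.0506), a comparison in which 44% of all genes were called. All 3 primordium libraries were above all 3 mycelium libraries, an arrangement found in 36% of genes. Without stage 1 primordium replicate 3 the log2 change was 1.19 (edgeR adjusted p = 0.277), so the estimate rests largely on that library. The change passed the threshold in edgeR without 8 of the 14 libraries taken 1 at a time, namely stage 1 primordium replicate 1 or 2, either stage 2 library, young fruiting body replicate 2 or any fruiting body library, with the lowest adjusted p (0.0137) without fruiting body replicate 1.

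Young fruiting body and fruiting body overlapped mycelium in Hyd5, with log2 changes of 0.90 ± 0.85 and 1.57 ± 0.85 SE (edgeR adjusted p = 0.461 and 0.159), in comparisons with 33% and 42.3% of genes called. Without fruiting body replicate 1 the second was -0.052. Against stage 1 primordium, young fruiting body was at -1.37 ± 0.84 and fruiting body at -0.70 ± 0.83 (edgeR adjusted p = 0.312 and 0.535), with 11% and 33.9% of genes called. Without fruiting body replicate 1 the latter was called, at -2.33 (edgeR adjusted p = 0.0443), and without stage 1 primordium replicate 3 it was 0.35. Fruiting body against young fruiting body gave 0.67 ± 0.84 (edgeR adjusted p = 0.678; 3.54% of genes called) and -0.96 without fruiting body replicate 1. Below stage 2 primordium, then, no stages next to each other in the order of levels differed beyond their spread in the fit over all libraries.

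Replicates of the fruiting stages differed more in Hyd5 than in most genes. Among genes with a stage mean above 1 CPM, the log2 range of Hyd5 between replicates was larger than that of 98.9% of genes in fruiting body, 97.0% in stage 1 primordium, 95.2% in stage 2 primordium and 88.3% in young fruiting body. In mycelium it was larger than that of 49.4%. In each of the 5 stages the library highest in Hyd5, with no scaling factor applied, was the one with the lowest TMM factor of its stage. In 4 of 5 it also had the largest share of reads in its 50 most abundant models. The part of these library measures in the level of Hyd5 was not tested. How many other genes show the same matches was not counted, so they are not read as particular to Hyd5.

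Within the hydrophobins, 7 of the 13 genes with such a symbol had a matched model: Hyd5, SC3, SC6, Hyd3, Hyd4, Hyd8 and Hyd9 (SC6 by its older locus tag only, so less surely). SC1, SC4, Hyd1, HYD2, Hyd6 and Hyd7 were not analysed here. The other 6 all had their highest mean in stage 1 primordium, but for Hyd3 and Hyd4 that mean leaned on replicate 2. The share of all genes with their highest mean in that stage was not counted, so the 6 are not set apart by it. Hyd3 was at 1.69, 90.9 and 0.243 CPM in stage 1 primordium replicates 1 to 3, and at 0.280 to 5.49 CPM in fruiting body. Hyd4 was at 21.1, 340 and 32.3 CPM in those stage 1 libraries, and at 56.6 to 207 CPM in fruiting body. Hyd9 had reads in stage 1 primordium only and passed the filter on low counts through that stage alone. Its highest mean there and its changes into and out of that stage are therefore a description. Of the other 5, 4 rose from mycelium to stage 1 primordium, where 22.5% of all genes were called higher, and the median log2 change of the 5 was 8.98, against 0.02 over all genes. Hyd8 was at 0.0572 to 0.452 TPM in mycelium and 113 to 764 TPM in stage 1 primordium (log2 change 10.77 ± 1.41 SE, edgeR adjusted p = 8.21e-05), and Hyd9, with 0 reads in mycelium, was at least 69.4-fold higher, or at least 32.6-fold without stage 1 primordium replicate 3. SC3, the exception, was at 372 to 687 TPM in mycelium and had a change of 2.77 ± 1.16 (edgeR adjusted p = 0.0717).

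From stage 1 to stage 2 primordium 4 of these 5 fell and 0 rose, where 19.3% of genes were called lower and 22.2% higher. The median of the 5 was -4.22 with Hyd3 at its bound, against 0.04. Hyd5 had its maximum where these genes fell, but its own change there was used to choose it and the difference was not tested.

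SC3 and SC6 were low in stage 2 primordium. SC3 was at 4685, 1629 and 1186 TPM in stage 1 primordium replicates 1 to 3 and at 26.9 and 195 TPM in stage 2 primordium replicates 2 and 3, and fell by 4.22 on the log2 scale (SE 1.48, edgeR adjusted p = 0.0382). SC6 was at 330, 915 and 200 TPM and then at 2.22 and 3.57 TPM, and fell by 6.82 (SE 1.75, edgeR adjusted p = 0.0095). In both genes the stage 2 libraries were below every stage 1 library, an arrangement whose share among all genes was not counted. Hyd8 fell by 3.23 (SE 1.13, edgeR adjusted p = 0.0382), and Hyd3 and Hyd9, with 0 reads in stage 2 primordium, were lower by at least 274-fold for Hyd3 and 25.0-fold for Hyd9 (with 3 reads over the stage as the floor). Each bound leans on 1 stage 1 primordium library, and is 8.27-fold for Hyd3 without replicate 2 and 11.7-fold for Hyd9 without replicate 3. Hyd4, at 50.8 and 36.3 TPM in stage 2, was not called (-1.57 ± 1.07), so 4 of the 5 genes other than Hyd9 were called. Hyd9 passed the filter through stage 1 primordium alone, so its own call is only a description. The count, 5 of 6 with Hyd9 included, rests on both stage 2 libraries: edgeR called 0 of 6 without either one, 1 without stage 1 primordium replicate 2, and 3 without vegetative mycelium replicate 3.

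From stage 2 primordium to young fruiting body edgeR called 0 of the 5 other than Hyd9 (8.71% of all genes called), with 0 at an unadjusted p below 0.05. Hyd9 had 0 reads in both stages and could not be called. DESeq2, limma voom and the other alternatives that kept both stage 2 libraries also called 0. The median there was 2.03 over the 5 genes without Hyd9, a lower bound set by Hyd3 with its 0 reads in stage 2 primordium, against 0.05 over all genes. SC3 was at 1108, 18.6 and 1973 TPM in young fruiting body replicates 1 to 3 and at 5.45, 30.9 and 20.3 TPM in those of fruiting body, so the stages overlapped. SC3 was the 1 gene called between them of the 5 other than Hyd9, which again had 0 reads in both. It fell by 5.98 (SE 1.35, edgeR adjusted p = 0.0367), where 0.923% of genes were called lower. The median of the 5 genes without Hyd9 was 2.18 there, against 0.01 over all genes. Without any 1 mycelium or fruiting body library, or young fruiting body replicate 3, edgeR called 0 of these 5 there, and without young fruiting body replicate 1 it called 2.

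The 6 hydrophobins with no matched model, SC1 and SC4 among them, are outside the sums given here, so these are not shares of all hydrophobin RNA. The share of Hyd5 in the transcripts of the 7 matched genes differed widely between stages. It was 67.2% and 28.2% of the summed TPM of the 7 genes in stage 2 primordium replicates 2 and 3, where Hyd5 ranked first and second among them. In mycelium it held 1.84% to 3.01%, second to SC3 in all 3 libraries. In stage 1 primordium it held 0.383% to 4.85%, in young fruiting body 0.835% to 11.2% and in fruiting body 1.06% to 13.8%. The sum of the 7 genes was 330 and 350 TPM in stage 2 primordium, 1638 to 5294 TPM in stage 1 primordium and 386 to 706 TPM in mycelium. It was 97.8 to 2087 TPM in young fruiting body, whose replicate 2 had the lowest sum of the series, and 477 to 996 TPM in fruiting body.

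**Figure D3:**
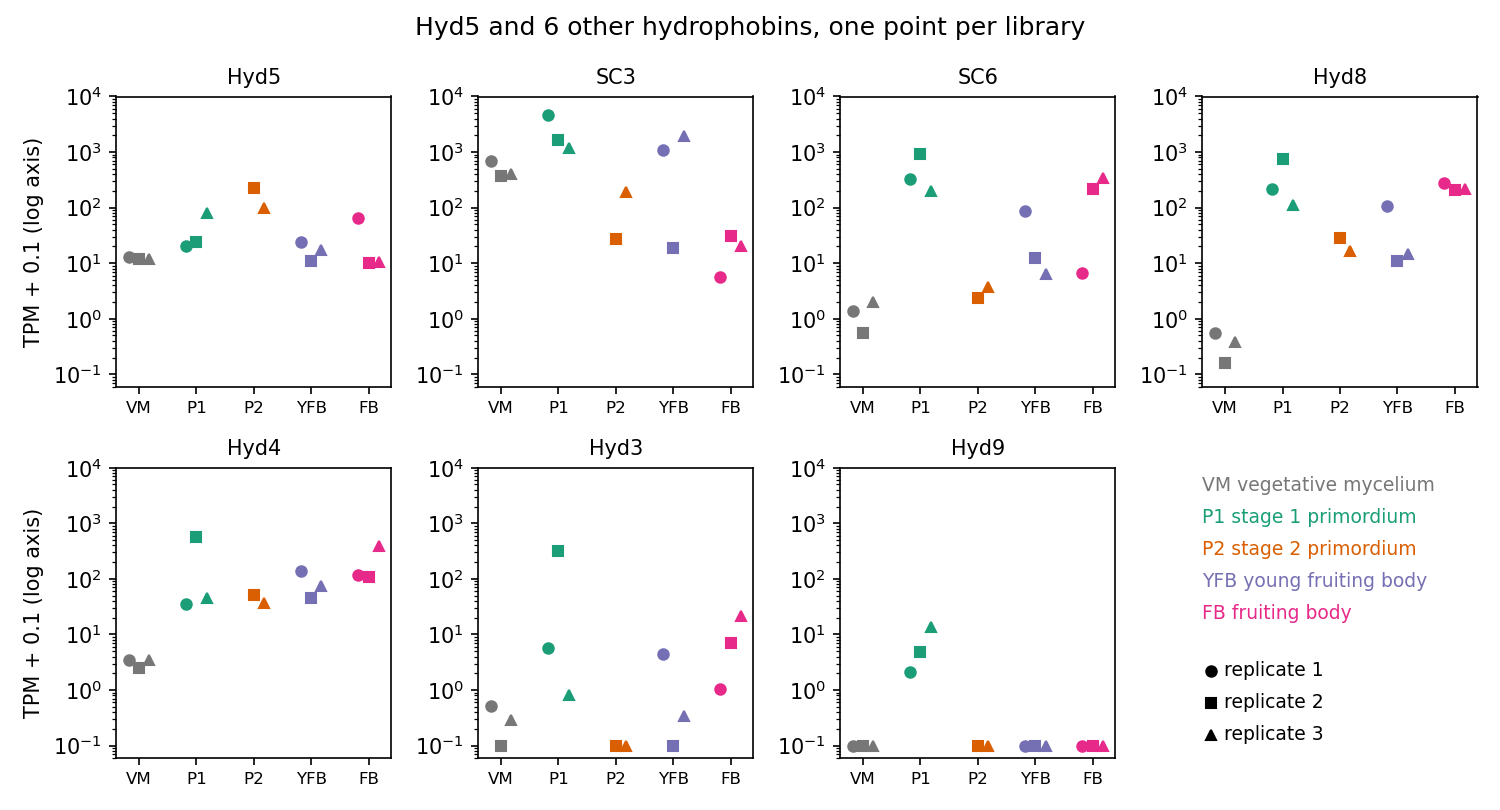
TPM plus 0.1 (log axis) of Hyd5 and 6 other hydrophobins in each library by stage; symbols give the replicate number and points at 0.1 are libraries with 0 reads. Hyd5 is highest in stage 2 primordium, at 222 and 98.6 TPM, where SC6 (2.22 and 3.57 TPM) and SC3 (26.9 and 195 TPM) are low and Hyd3 and Hyd9 have no reads.

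Hyd5 stood opposite SC3 and SC6 between some replicates as well. In 3 of the 5 stages, stage 1 primordium, stage 2 primordium and fruiting body, the library highest in Hyd5 was the lowest of its stage in both SC3 and SC6 by TPM. By TMM-scaled CPM this held in 2 of the 5, since in stage 2 primordium SC6 was at 2.21 CPM in replicate 2 and 1.93 CPM in replicate 3. In fruiting body replicate 1 Hyd5 was at 65.6 TPM and SC6 at 6.53 TPM, against 9.89 and 212 TPM in replicate 2, and 10.6 and 346 TPM in replicate 3. In young fruiting body and mycelium the highest Hyd5 library was the lowest in neither gene. Hyd3 went the same way as SC3 and SC6 in stage 1 primordium replicate 3 (0.704 TPM against 5.72 and 318). It did so too in fruiting body replicate 1 (0.957 TPM against 6.86 and 21.0), and had 0 reads in stage 2 primordium. Hyd8, Hyd4 and Hyd9 went the other way in some stages. Hyd8 was the highest of its stage in stage 2 primordium replicate 2 (28.4 against 16.8 TPM) and fruiting body replicate 1 (280 against 210 and 216 TPM), though lowest in stage 1 primordium replicate 3. Hyd4 was higher in stage 2 primordium replicate 2 (50.8 against 36.3 TPM) but in the middle in fruiting body replicate 1 (118 against 108 and 383 TPM). Hyd9 was highest in stage 1 primordium replicate 3. The arrangement of SC3 and SC6 was picked out after the values were seen and was not tested, and its share among all genes was not counted.

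The genes listed on either side of Hyd5 in the reference were mostly highest in other stages. On one side was SCHCODRAFT_0269888, a short model of 333 bases whose annotated span slightly overlaps that of Hyd5 (a gap of -9 bases). It had 0 to 6 reads in any library, the 6 of them in stage 2 primordium replicate 2, and did not pass the filter on low counts. The libraries are unstranded, so reads in the overlap cannot be assigned to a strand, and its 21 reads in all compare with 5829 for Hyd5. Beyond it SCHCODRAFT_02670482 had stage means of 107 to 190 CPM, highest in stage 1 primordium and at 123 CPM in stage 2. On the other side SCHCODRAFT_0250298 was highest in mycelium (34.5 ± 4.03 CPM, SD, n = 3), at 16.8 ± 2.21 in stage 1 primordium (n = 3) and at 45.2 and 18.6 CPM in stage 2 primordium replicates 2 and 3. It rose from stage 1 to stage 2 primordium by 0.92 ± 0.34 SE on the log2 scale (edgeR adjusted p = 0.0449), and its Pearson's r with Hyd5 in log2 CPM, a description with no p, was 0.24 over 14 libraries and 0.70 over the 11 fruiting ones. That call was kept only without stage 2 primordium replicate 3, young fruiting body replicate 2 or fruiting body replicate 1 or 2, among the libraries left out in turn. The change was 0.15 without stage 2 primordium replicate 2 and 0.37 with no scaling factor (edgeR adjusted p = 0.778 and 0.336). The gene after it, SCHCODRAFT_02511402, was highest in mycelium at 51.7 CPM and lowest in fruiting body at 16.0 CPM.

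Likeness to Hyd5 was measured as Pearson's r of log2 CPM (prior count 2) over the 14 libraries, with 14301 genes compared. It is a description: the libraries share the stages and the scaling, and r has no p. The 10 most alike ran from 0.95 for SCHCODRAFT_02634102 to 0.91 for SCHCODRAFT_02639817. In order of r, the others between them were SCHCODRAFT_01293032, SCHCODRAFT_02622963, SCHCODRAFT_02634024, SCHCODRAFT_02146277, SCHCODRAFT_02630779, SCHCODRAFT_02548794, SCHCODRAFT_02610739 and SCHCODRAFT_02633604. None has a product name in the tables used. All 10 had their highest mean in stage 2 primordium, but they were picked for likeness to a gene chosen by that peak. Only 6 of the 10 had both stage 2 libraries above the other 12 (6.56% of all genes tested), and nothing is read from either count.

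Their amplitude was much smaller than that of Hyd5. Stage 2 primordium means were 1.56 to 5.70 times the mycelium means in the 10, against 30.5 times in Hyd5. The one with the largest ratio of stage 2 to mycelium mean, SCHCODRAFT_01293032, was at 27.0, 26.8 and 28.3 CPM in mycelium replicates 1 to 3 and at 175 and 137 CPM in stage 2 primordium replicates 2 and 3. SCHCODRAFT_02634102, with the highest r, went only from 32.1 to 33.5 CPM in mycelium to 60.2 and 44.4 CPM in stage 2 primordium.

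The list depended on the scaling. With no scaling factor r fell below 0.5 for 4 of the 10, SCHCODRAFT_02634102 (-0.028) among them, and was 0.85 for SCHCODRAFT_02630779, SCHCODRAFT_01293032 and SCHCODRAFT_02622963. Only 3 of the 10 stayed among the 10 most alike with no scaling factor, 3 by Spearman's rank correlation, 4 within the 11 fruiting libraries, and 6 and 7 without stage 2 primordium replicates 2 and 3. In the authors' log2 RPKM all 10 did. The other hydrophobins were not like Hyd5 by this measure, with r between -0.21 (Hyd3) and 0.37 (Hyd8).

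**Figure D4:**
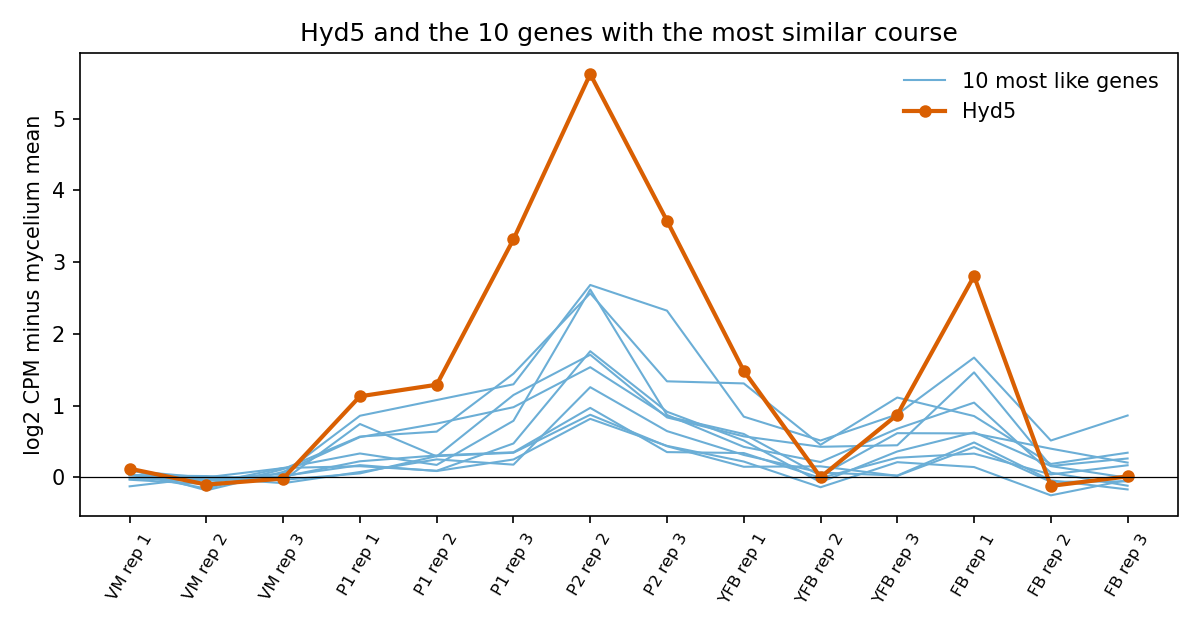
Difference in log2 CPM (TMM-scaled) from the mycelium mean in each library, for Hyd5 (thick line with points) and for the 10 genes with the highest r (thin lines); lines join libraries only to guide the eye. All lines are highest in stage 2 primordium replicate 2, and the thin lines stay below Hyd5 in both stage 2 libraries (stage means 1.56 to 5.70 times mycelium, against 30.5 times).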

How the data were processed

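The per-library files hold raw counts, deposited by the authors as unique and total gene reads per transcript model, and TPM, which the authors derived from total reads (recomputed to within 4.98e-07 TPM). A deposited series table holds log2 RPKM. The submitters' processing notes list edgeR 3.4.2, limma 3.18.13 and R 3.0.2, with no role for any of them. The sources used here give no aligner and no genome build beyond Schco3 in the model names. Per the labels' protocols the TruSeq kit was one that does not mark strand.

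Unique reads were tested in R 4.3.3 with edgeR 4.0.16, with filterByExpr on stage, TMM and a robust quasi-likelihood model of stage on the 14 libraries. Each SE is the size of the log2 change divided by the square root of F. The script was tested on simulated data. Alternatives were DESeq2 1.42.0, limma 3.58.1, other scalings, filters and reads, a replicate block and left-out libraries.

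The gene, the lists and the tests were chosen with earlier results of these data known. Named genes were Hyd5, hydrophobins by symbol (a planned search by protein pattern was not made), the 10 most alike genes, and 2 listed genes on each side. Of 16319 models, 16024 were matched to a locus tag. Replicates are labelled as biological, with nothing on separate cultures, so p-values measure only the spread between these libraries.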

Additional observations from a re-analysis of the deposited data

How the results depend on the processing

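Over 22 alternatives the log2 change of Hyd5 kept its direction and its side of the threshold in 22 for young fruiting body against mycelium (0.49 to 1.21) and in 22 for young fruiting body against stage 1 primordium (-1.78 to -0.32). The other Hyd5 comparisons moved with single libraries. Stage 1 primordium against mycelium ran from 1.19 to 2.61 with 1 library left out, and passed the threshold when fitted on those 2 stages alone (2.25, edgeR adjusted p = 0.0271). With 1 library left out, fruiting body ran from -0.052 to 2.00 against mycelium (reversed without fruiting body replicate 1), from -2.33 to 0.35 against stage 1 primordium (reversed without stage 1 primordium replicate 3, at 0.35), and from -0.96 to 1.09 against young fruiting body (reversed without fruiting body replicate 1). The cause was not tested. DESeq2 returned an NA p for Hyd5 in all 6 comparisons, with log2 changes from -1.41 to 2.27.

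Of the 6 other hydrophobins, the number called from stage 1 to stage 2 primordium was 3 by DESeq2, 3 with a replicate block and 0 to 5 with 1 library left out. From young fruiting body to fruiting body it was 0 with no scaling factor, 0 by voom, 0 with a replicate block and 0 to 2 with 1 library left out. From mycelium to stage 1 primordium it was 4 to 6. These counts include Hyd9, which passed the filter on low counts through stage 1 primordium alone. Without it the main fit called 4 of 5 into that stage and 4 of 5 out of it. Hyd9 had 0 reads in young fruiting body and fruiting body, so it could not be called between them. The mean of Hyd5 in mycelium was 5.63 CPM with no scaling factor and 4.71 CPM with TMM.

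Replicate numbers did not pair the libraries: over 18 same-numbered pairs the deviations from stage means correlated at -0.26 to 0.19, and 2 of 18 exceeded 0.1. With the replicate block Hyd5 in stage 1 primordium against mycelium was at 2.34 (edgeR adjusted p = 0.0579), and the block changed no call of Hyd5. The share of all genes called ran over the alternatives from 34.1% to 65.1% for stage 1 primordium against mycelium, 24.0% to 39.4% for young fruiting body and 33.1% to 49.8% for fruiting body against mycelium, 3.9% to 16.6% and 22.8% to 38.5% for these against stage 1 primordium, 0% to 8.79% between them, 21.2% to 46.5% for stage 2 against stage 1 primordium and 0% to 25.1% for young fruiting body against stage 2 primordium. The lowest count of Hyd5 was 74 reads, in fruiting body replicate 2, where the counting interval was 3.39 to 5.42 CPM.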

Other observations

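Some genes followed the differences of Hyd5 between replicates of a stage. With each stage's mean taken out, r of the remaining log2 deviations over the 14 libraries was at least 0.9 for 92 genes with TMM scaling, 30 of which also reached it with no scaling factor. This was looked for after the levels were seen, and is given with no p and no test. None of the 10 genes most like Hyd5 over all libraries was among the 30. The 5 highest by the lower of both values were SCHCODRAFT_02633196, SCHCODRAFT_01216282, SCHCODRAFT_02622124, SCHCODRAFT_02491477 and SCHCODRAFT_02751715, with r of 0.96 to 0.99 under TMM and 0.95 to 0.99 with no factor.

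SCHCODRAFT_02633196 was at 58.9, 75.7 and 359 CPM in stage 1 primordium replicates 1 to 3 and at 7427 and 1499 CPM in stage 2 primordium replicates 2 and 3. It was at 730, 296 and 445 CPM in young fruiting body replicates 1 to 3 and at 656, 53.5 and 90.5 CPM in those of fruiting body. In each of these stages its highest library was the one highest in Hyd5. Its choice by r within stages favours that match, so nothing is read from it. Unlike Hyd5, it was higher in every young fruiting body library than in 2 of the 3 stage 1 primordium libraries. SCHCODRAFT_02491477 was at 1.80, 1.69 and 47.6 CPM in stage 1 primordium and at 2923 and 183 CPM in stage 2 primordium, and in fruiting body at 170, 8.47 and 11.2 CPM.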
